A study of Mus musculus with 4 samples.

Results

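The genes described here are 36 components of the endoplasmic reticulum (ER) folding machinery and of the unfolded protein response, measured in single cells of mouse pancreatic islets. They were chosen by symbol from a list of chaperones, folding enzymes, stress sensors, degradation factors and translocation proteins. The rule uses no measured value, but the list was drawn up with earlier results of these data known. All 36 symbols were found among the 21594 gene symbols counted in the 4 libraries. Each gene is followed across the hormone-defined cell classes of the islet, beta cells against the others, and between mutant and control islets.

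The mutant islets came from Atf4F/F; Ins1Cre mice, in which a Cre recombinase driven from the Ins1 locus acts on the floxed Atf4 gene in insulin-producing cells. The control islets came from Atf4F/F mice, which carry the same floxed alleles without the recombinase. All mice were 2 months old and untreated, and each genotype was sampled as 2 pools, so a pool of several mice is the replicate. The pools held 2 males and 2 females according to the series' design text and 3 to 4 mice according to the extraction protocol. Reporter-positive (tdT+) and reporter-negative cells went into the same droplet runs, and 10% human K562 cells (a leukaemia line) were added to each suspension; mouse genes only were counted, so those cells could not be identified. Levels are given as counts per 1000000 UMIs (CPM) with the totals adjusted by trimmed-mean (TMM) scaling, unless stated otherwise. Atf4 itself, the targeted gene, stood at 3.35, 175, 532 and 547 CPM in the beta cells of mutant 1, mutant 2, control 1 and control 2. The library labelled mutant 2 thus kept an Atf4 level in beta cells that lay between that of mutant 1 and those of the controls.

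Proteins made for secretion enter the ER through the Sec61 channel, fold there with the help of chaperones such as BiP (Hspa5) and of disulfide isomerases, and are pulled back to the cytosol and degraded when they fail to fold. Unfolded protein activates 3 sensors in the ER membrane, Ern1 (IRE1), Atf6 and Eif2ak3 (PERK). Ern1 splices the messenger of the transcription factor Xbp1, Atf6 is cut to release a transcription factor, and Eif2ak3 phosphorylates eIF2α, which slows translation and favours that of Atf4. Beta cells translate proinsulin, a disulfide-bonded protein, at a very high rate and are known to depend on this machinery.

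Promoter sequences are shown first because many of these genes are classical targets of one DNA element. RefSeq promoters of build GRCm38.p6 (250 bases before the annotated start) were at hand for 31 of the 36 genes. The ER stress element ERSE, which is CCAAT and CCACG with 9 bases of any kind between them and is bound by NF-Y with Atf6 or Xbp1, was searched on both strands and was present in 9 of the 31. Among all 27025 genes in the same table, 0.13% held it in a window of equal length. The holders were Calr, Canx, Creld2, Derl3, Dnajc3, Hsp90b1, Hspa5, Pdia6 and Syvn1. The related ERSE-II (ATTGG, 1 base of any kind, then CCACG), which shares the CCACG half-site with ERSE, occurred in Herpud1 alone, against 0.037% of all genes. Both are textbook patterns and the list holds classical targets, so these shares are not an independent finding. The stretches are given 5′ to 3′ on the strand of the gene with the fixed bases of the element in capitals. An element on the opposite strand therefore reads CGTGG first and ATTGG last.
Hspa5 (chr2:34772020-34772048, plus strand): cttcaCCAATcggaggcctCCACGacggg
Hsp90b1 (chr10:86705513-86705676, minus strand): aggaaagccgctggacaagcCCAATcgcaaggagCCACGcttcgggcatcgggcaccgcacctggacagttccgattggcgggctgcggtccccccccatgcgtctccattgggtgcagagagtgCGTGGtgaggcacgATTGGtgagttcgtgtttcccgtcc
Creld2 (chr15:88819500-88819558, plus strand): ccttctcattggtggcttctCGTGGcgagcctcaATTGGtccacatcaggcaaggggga
Dnajc3 (chr14:118937807-118937865, plus strand): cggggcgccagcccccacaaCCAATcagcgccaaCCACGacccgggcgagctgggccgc
Calr (chr8:84847055-84847113, minus strand): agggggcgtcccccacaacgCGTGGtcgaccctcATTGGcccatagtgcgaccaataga
Canx (chr11:50325780-50325838, minus strand): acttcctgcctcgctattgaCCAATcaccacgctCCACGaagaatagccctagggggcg
Pdia6 (chr12:17266471-17266529, plus strand): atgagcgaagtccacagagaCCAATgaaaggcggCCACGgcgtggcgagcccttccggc
Derl3 (chr10:75893222-75893280, plus strand): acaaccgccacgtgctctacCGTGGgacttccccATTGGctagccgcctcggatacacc
Syvn1 (chr19:6046512-6046570, plus strand): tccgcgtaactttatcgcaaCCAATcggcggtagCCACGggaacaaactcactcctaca
Herpud1 (chr8:94386357-94386407, plus strand): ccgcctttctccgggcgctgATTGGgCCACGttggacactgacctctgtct

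The elements lay between 212 and 26 bases before the annotated start in the ERSE holders, and at 52 to 42 bases before it in Herpud1. Hsp90b1 held 2 matches in opposite orientation, 1 on each strand, and each of the other ERSE holders held 1. In Hspa5 a transcript model of GENCODE starts upstream of the RefSeq start, so only the element and 5 bases on either side are shown. Another element, the UPRE (TGACG followed directly by TGG), occurred in Vcp alone (0.603% of all genes). The element bound by Atf4 with C/EBP partners, searched as TGATG, 1 base of any kind, then AA, occurred in Herpud1 alone of the 31, against 3.91% of all genes. No match says only that these letters are not in the window searched.

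The deposited files held 2352 to 3272 barcodes per library with 13706563 to 17655893 unique molecular identifiers (UMIs, counts of distinct captured transcripts), and 1403 to 1997 cells per library passed the filters of at least 500 genes and under 20% mitochondrial counts. Any 2 libraries shared 41 to 82 barcodes, 14 to 35 among the cells kept. A cell was classed as beta where insulin messengers made up at least 10% of its UMIs and no other islet hormone reached 0.5%, and as alpha, delta or PP by its glucagon, somatostatin or pancreatic polypeptide share. Of 6995 cells, 5070 were classed and 1596 with insulin and a second hormone were left out. Beta sums held 8829651 to 11346980 UMIs from 751 to 1209 cells per pool, alpha sums 773050 to 1158017 from 134 to 241 cells, and delta sums 191157 to 397895 from 55 to 88 cells. Barcodes of fewer than 400 UMIs, too few for the cells kept here, held 31.8% to 37.2% insulin, and insulin was a median of 0.49% to 0.93% of the UMIs of alpha cells. One delta sum, that of control 2, carried erythroid markers at 15910 CPM, against at most 2.72 CPM in the other 3 delta sums.

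The 36 genes together made up a larger share of the messenger pool in beta cells than in alpha cells. The median beta cell gave them 0.961%, 0.850%, 0.824% and 0.884% of its UMIs in mutant 1, mutant 2, control 1 and control 2, the order used for all values below. In alpha cells the medians were 0.619%, 0.551%, 0.617% and 0.629%, and no alpha pool reached a beta pool. Delta cells lay between them, at 0.749%, 0.6995%, 0.757% and 0.692%. PP cells, with 10 to 34 cells per pool, had medians of 0.805% to 0.936%, which overlapped those of beta cells while insulin was counted in the total. Endothelial cells, which secrete no hormone, had 0.538% to 0.582%. Macrophages had 0.652%, 0.613%, 0.954% and 0.529%, the value of control 1 coming from 7 cells and lying within the beta range. Insulin messengers filled 37.7% to 43.4% of the median beta cell. Without insulin in the total, the 36 genes made up 1.41% to 1.55% in beta cells. They made up 0.554% to 0.638% in alpha cells and 0.809% to 0.953% in PP cells, and no PP pool reached a beta pool. Only insulin was removed, so glucagon, a median of 24.9% to 27.3% of alpha UMIs, stayed in the alpha totals. Pancreatic polypeptide likewise stayed in the PP totals, so these shares do not compare the classes on like terms. Shares without each class's own hormone were not computed.

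Gene by gene, 35 of the 36 could be tested between beta and alpha cells, and 31 were higher in beta cells and 1 was lower at an adjusted p under 0.05 (edgeR quasi-likelihood test on counts summed per pool and class, with the pool as a block). Of all 13411 genes tested, 41% were called, 21.9% as higher and 19.1% as lower. The median difference was 1.14 on the log2 scale over the 35 genes and 0.002 over all genes. Beta sums lay above alpha sums in every pool comparison, with no overlap, for 29 of the 35, against 19.6% of all genes. Against delta cells all 36 were tested, with 28 higher and 1 lower, where 25.5% of all 13405 genes were called, 15% as higher and 10.5% as lower. The median here was 0.93 against 0.083 over all genes, and 27 of the 36 did not overlap with the beta sums above, against 17.2% of all genes. In this fit edgeR gave every gene the common spread, so its small p-values rest on that assumption. Called higher against both other classes were 27 genes, and Dnajc1 was called in neither.

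The scaling of the sums bears on these counts, since insulin fills so much of a beta sum. With trimmed-mean (TMM) scaling, the one used here, 2942 genes were higher and 2562 lower against alpha cells. With library totals alone the median of all genes was -0.30 in place of 0.0020, the split became 1692 higher and 4437 lower, and 28 of the genes described here were still higher and 3 lower. Against delta cells the median was -0.35 in place of 0.083 and the split went from 2015 higher and 1403 lower to 875 and 3011, with 18 of the 36 higher and 2 lower. The distance between the median of the members and that of all genes hardly moved, from 1.14 to 1.13 against alpha and from 0.85 to 0.84 against delta.

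**Figure D1:**
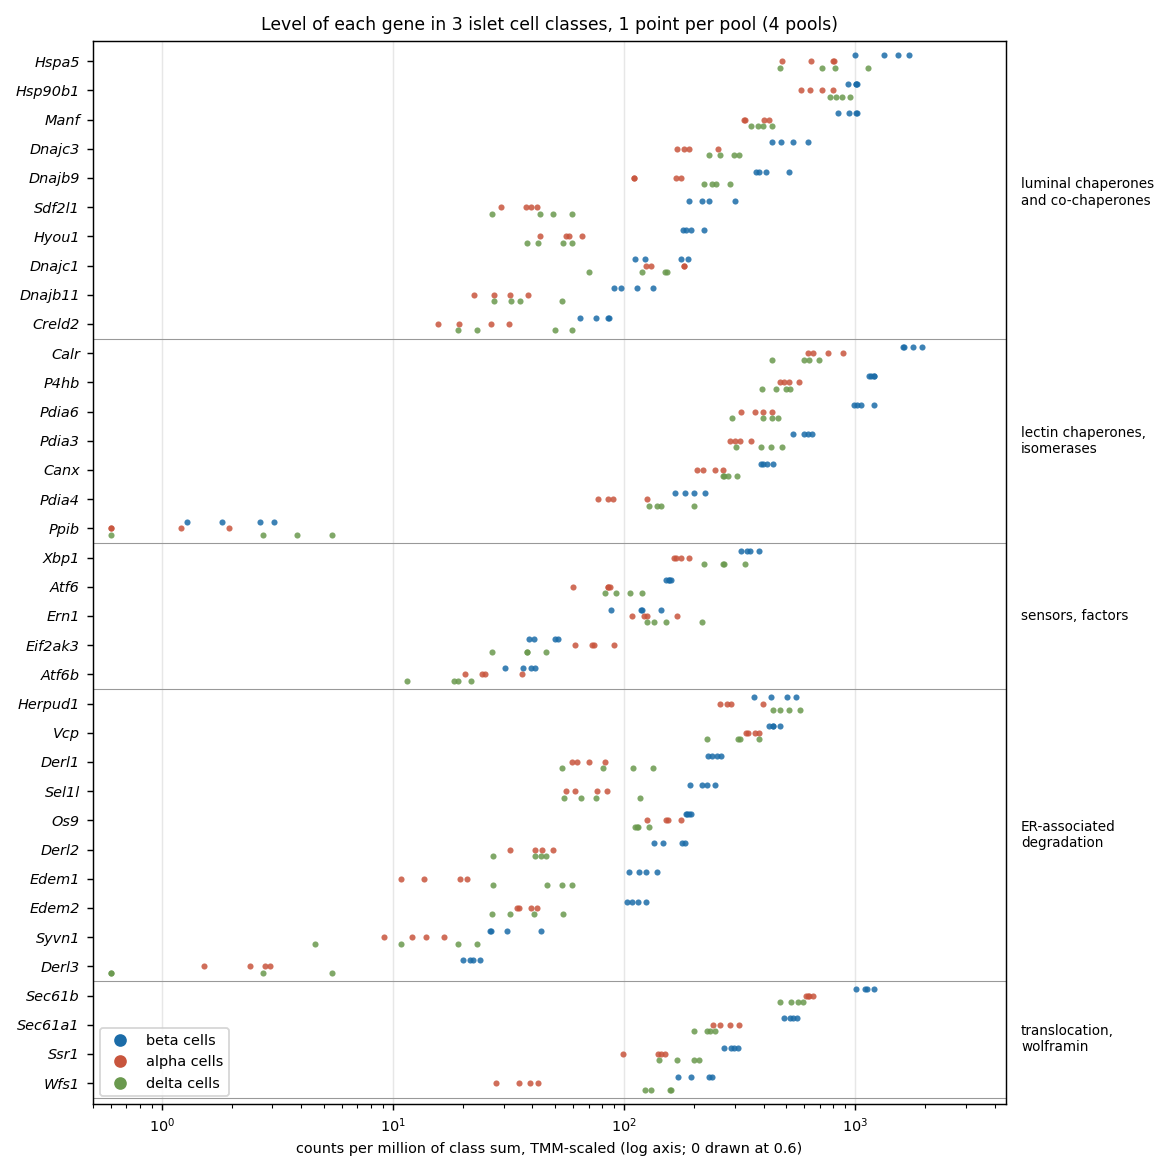
Level of each of the 36 genes (log axis, CPM of the class sum after TMM scaling) in beta, alpha and delta cells, 1 point per pool, with genes grouped by role. For most genes the 4 beta points lie to the right of the alpha points, as for Wfs1 at 171 to 238 against 27.9 to 42.5 CPM, while Eif2ak3 shows the opposite order against alpha cells.

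Among the luminal chaperones, 9 of 10 were higher in beta than in alpha cells and 8 of 10 higher than in delta cells. Hspa5 (chr2:34771970-34777547, GRCm38), the Hsp70 chaperone BiP, stood at 1703, 1332, 1531 and 997 CPM in beta cells. In alpha cells it stood at 796, 639.7, 808 and 483 CPM and in delta cells at 813, 715, 1137 and 471 CPM. Every beta pool exceeded every alpha pool, but the delta pool of control 1 lay above the beta pool of control 2, and in all 3 classes control 2 was the lowest pool. Within a pool the difference was 0.96 ± 0.078 (log2 change ± SE, 4 pools) against alpha cells and 0.84 ± 0.12 against delta cells, with adjusted p of 2.07e-10 and 5.24e-11.

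Hsp90b1 (chr10:86690209-86705509), the Hsp90 chaperone GRP94, stood at 1017, 1001, 927 and 1006 CPM in beta cells. It reached 638, 579, 717 and 802 CPM in alpha cells and 878, 946, 827 and 774 CPM in delta cells. It was thus higher than in alpha cells by 0.47 ± 0.087 (adjusted p = 9.00e-05), without overlap, while the beta and delta pools overlapped and the difference of 0.18 ± 0.12 did not pass (adjusted p = 0.264). With library totals alone the call against alpha cells was lost and the direction against delta cells turned to -0.26. The gene 1810014B01Rik overlaps its 3′ end on the other strand.

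Sdf2l1 and Hyou1, which work with Hspa5, had larger values than it against both classes, though no test compared the genes. Sdf2l1 (chr16:17130138-17132383), a small ER protein that works with the Hspa5 co-chaperone Dnajb11, stood at 216, 190.5, 232 and 301 CPM in beta cells, 42.03, 29.3, 39.4 and 37.6 CPM in alpha cells and 26.8, 48.96, 59.4 and 43.3 CPM in delta cells. Its difference was 2.58 ± 0.13 against alpha and 2.32 ± 0.19 against delta cells, and no pool of either class came near the lowest beta pool. Hyou1 (chr9:44379490-44392369), the large Hsp70-like nucleotide exchange factor of Hspa5, stood at 184, 179, 194 and 221 CPM in beta cells against 57.6, 42.97, 56.1 and 65.4 CPM in alpha and 42.2, 38.1, 59.4 and 54.1 CPM in delta cells. It also separated without overlap, by 1.75 ± 0.12 and 2.01 ± 0.19.

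The J-domain proteins, which deliver clients to Hspa5 and trigger its ATPase, were not alike. Dnajb11 stood at 133, 96.2, 89.8 and 114 CPM in beta cells and 38.4, 22.5, 27.3 and 32.02 CPM in alpha cells (1.79 ± 0.14). In delta cells it was 53.7, 35.4, 27.4 and 32.5 CPM (1.49 ± 0.22), so beta pools were above both. Dnajb9 (ERdj4), also a partner of the sensor Ern1, stood at 518, 383, 409 and 372 CPM in beta, 167, 110.4, 176 and 110.0 CPM in alpha and 249, 239, 288 and 222 CPM in delta cells. Its difference was 1.53 ± 0.10 against alpha and 0.73 ± 0.13 against delta cells, and the pools overlapped in neither. Dnajc3 (p58IPK), which can restrain Eif2ak3, stood at 624, 538, 437 and 475 CPM in beta, 253, 182, 168 and 191 CPM in alpha and 299, 313, 260.4 and 233 CPM in delta cells. It was higher by 1.32 ± 0.092 and 0.88 ± 0.13.

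Dnajc1 (chr2:18195654-18392830), a membrane-bound J protein, was the exception. It stood at 176, 188, 122 and 111 CPM in beta cells, at 181, 182, 124 and 131 CPM in alpha cells and at 149.6, 152, 119 and 70.3 CPM in delta cells. The classes overlapped, with differences of -0.13 ± 0.10 (adjusted p = 0.312) and 0.25 ± 0.16 (adjusted p = 0.246), whereas in each class both mutant pools lay above both control pools. That difference is taken up below.

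The remaining luminal members are secreted or retained small proteins induced by ER stress. Manf, a neurotrophic factor-like protein that binds Hspa5, stood at 1016, 844, 938 and 1010.0 CPM in beta cells, 334, 330.1, 403 and 420.5 CPM in alpha cells and 437, 397, 379 and 352 CPM in delta cells. Creld2, a cysteine-rich isomerase-like protein, stood at 85.98, 64.4, 75.1 and 85.2 CPM in beta cells, 19.2, 15.6, 31.8 and 26.4 CPM in alpha and 23.01, 19.04, 50.2 and 59.5 CPM in delta cells. Both were higher in beta cells without overlap, Manf by 1.29 ± 0.087 and 1.25 ± 0.12 and Creld2 by 1.70 ± 0.16 and 1.13 ± 0.24.

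All 6 lectin chaperones and isomerases that could be tested were higher in beta than in alpha cells, and 5 of 7 were higher than in delta cells. Calr (chr8:84841850-84846934), calreticulin, the luminal lectin that binds glycoproteins during folding, stood at 1600.0, 1626, 1774 and 1942 CPM in beta cells. Alpha cells had 624, 653, 761 and 879.9 CPM and delta cells 433, 628, 694 and 601 CPM. The beta pools lay far above both, by 1.19 ± 0.078 (adjusted p = 3.57e-12) and 1.54 ± 0.12 (adjusted p = 3.60e-34). Canx, calnexin, its membrane-bound counterpart, stood at 439.7, 396, 391 and 413 CPM in beta, 219.8, 207, 246 and 267 CPM in alpha and 307, 267, 269.5 and 281 CPM in delta cells. Its differences, 0.74 ± 0.093 and 0.53 ± 0.13, were smaller than those of Calr, though the pools did not overlap.

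Among the protein disulfide isomerases, P4hb (PDI) stood at 1202, 1172, 1145 and 1205 CPM in beta, 471, 489, 572 and 514 CPM in alpha and 395, 452, 502 and 519 CPM in delta cells. Pdia6, which also acts on Ern1, stood at 983, 1015, 1053 and 1202 CPM in beta, 369, 318, 437 and 397 CPM in alpha and 292, 397, 434 and 459.9 CPM in delta cells. Pdia3 (ERp57), the partner of the lectins, stood at 646, 598, 625 and 537 CPM in beta, 316, 299.8, 353 and 285 CPM in alpha and 429.5, 389, 479.6 and 303 CPM in delta cells. All 3 were above both other classes without overlap, by 1.14 ± 0.083 and 1.33 ± 0.12 for P4hb, 1.42 ± 0.088 and 1.42 ± 0.13 for Pdia6, and 0.87 ± 0.086 and 0.57 ± 0.12 for Pdia3.

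Pdia4 (ERp72) stood at 200.2, 183, 166 and 223 CPM in beta, 76.9, 88.9, 84.9 and 125 CPM in alpha and 138, 144, 128 and 200.2 CPM in delta cells. It passed against alpha cells (0.98 ± 0.11) and not against delta cells (0.33 ± 0.15, adjusted p = 0.0831), and control 2 was its highest pool in all 3 classes. Ppib, the ER cyclophilin, had only 3.05, 2.64, 1.28 and 1.82 CPM in beta cells and was not tested against alpha cells. Its 3′ end shares 1448 bases, chr9:66065176-66066623, with Snx22 on the other strand, and Snx22 stood at 0.13 to 0.16 CPM in beta cells. These counts say little about the level of Ppib.

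The sensors and their factors behaved unlike the chaperones, with 2 of 5 higher and 1 lower in beta than in alpha cells. Ern1 (chr11:106394650-106487852), the IRE1 kinase and endonuclease, stood at 87.7, 118, 119 and 145 CPM in beta cells, 125, 122, 108 and 168 CPM in alpha cells and 134, 125, 151 and 216 CPM in delta cells. The classes overlapped, and Ern1 was lower in beta cells by -0.24 ± 0.11 against alpha (adjusted p = 0.0846) and by -0.41 ± 0.15 against delta cells (adjusted p = 0.028). The call against delta cells was lost in 7 of the 16 alternatives, including without mutant 1, control 1 or control 2. Against alpha cells Ern1 was called lower in 4 of the 16 alternatives.

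Eif2ak3 (chr6:70844515-70905245), the PERK kinase upstream of Atf4, was the one gene called lower in beta than in alpha cells in the fit reported here. It stood at 50.00, 51.5, 38.6 and 40.6 CPM in beta, 90.1, 74.2, 72.8 and 61.3 CPM in alpha and 26.8, 38.1, 45.7 and 37.9 CPM in delta cells. All alpha pools exceeded all beta pools (-0.79 ± 0.12, adjusted p = 1.10e-05), while beta and delta pools overlapped (0.30 ± 0.26, adjusted p = 0.457).

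Atf6 (chr1:170704674-170867771) was the steadiest of the sensors, at 151, 159, 157 and 156 CPM in beta cells. Alpha cells had 85.3, 86.9, 84.9 and 59.9 CPM and delta cells 92.04, 106, 82.2 and 119 CPM, so beta cells were higher by 0.90 ± 0.11 and 0.63 ± 0.16. The call against delta cells was lost in 3 of the 16 alternatives, with library totals only, DESeq2 and controls only (adjusted p up to 0.434). Its homologue Atf6b stood at 36.3, 30.6, 39.5 and 41.1 CPM in beta, 36.03, 20.5, 24.3 and 25.1 CPM in alpha and 11.5, 19.04, 18.3 and 21.6 CPM in delta cells. It passed against delta cells only (1.02 ± 0.34, adjusted p = 0.0131), with 0.40 ± 0.18 (adjusted p = 0.0749) against alpha cells. That call was lost in the same 3 alternatives and without mutant 1 (0.84, adjusted p = 0.107).

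Xbp1 (chr11:5520659-5525893), the factor whose messenger Ern1 splices, stood at 349.7, 319, 339 and 381 CPM in beta cells, 176, 167, 164 and 191 CPM in alpha cells and 334, 267, 269.5 and 222 CPM in delta cells. It was higher than in alpha cells by 0.92 ± 0.092 (adjusted p = 8.88e-09) and overlapped with delta cells (0.31 ± 0.13, adjusted p = 0.0602). Counts per gene do not separate its spliced from its unspliced messenger. In 6 of the 16 alternatives Xbp1 was called higher than in delta cells, and in 1 its direction turned. Hsp90b1, Pdia4 and Herpud1 likewise had a call against alpha but not against delta cells in the fit reported here. Hsp90b1 gained the call against delta cells in 1 alternative.

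**Figure D2:**
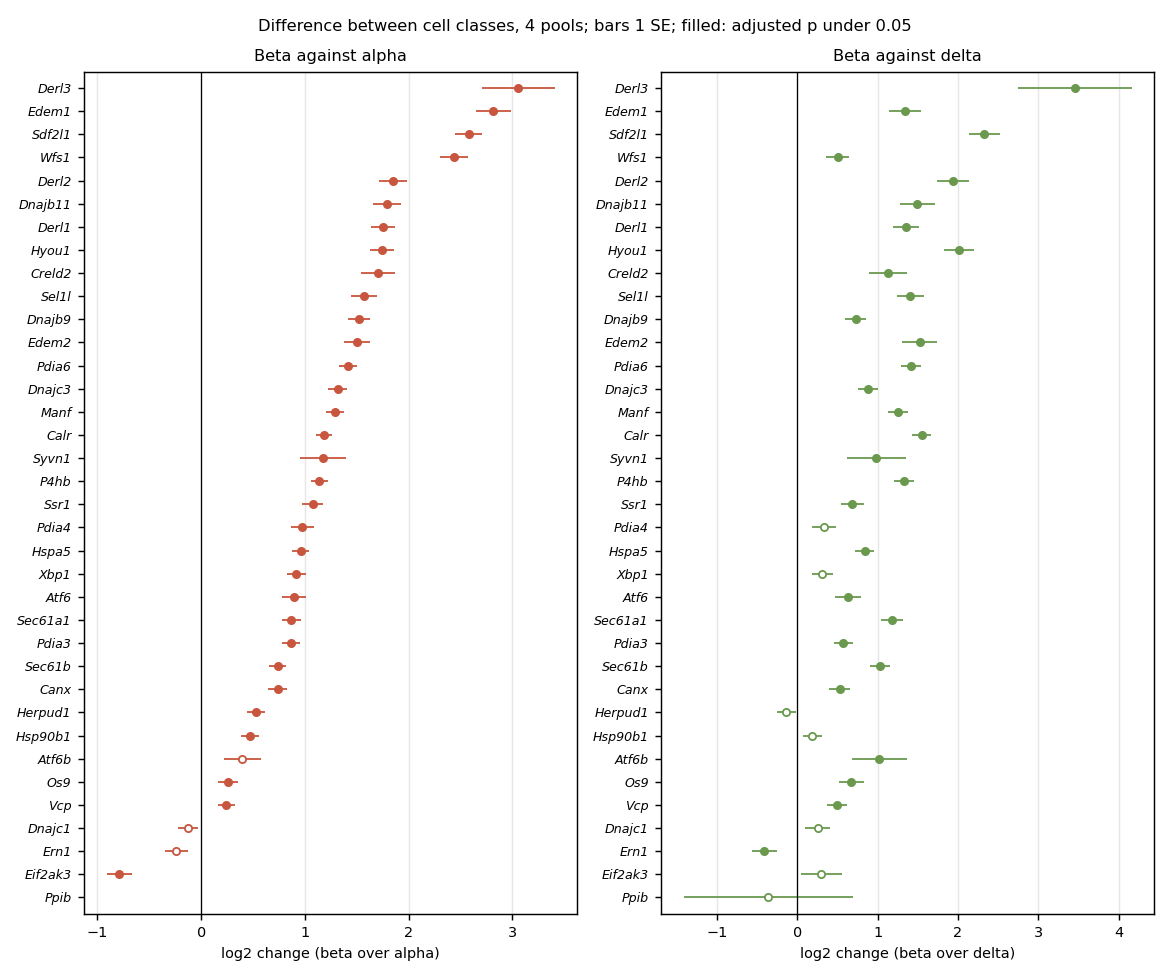
Log2 difference (x axis, bars 1 SE) between beta and alpha cells (left) and between beta and delta cells (right) for each gene, ordered by the difference from alpha cells; filled points have an adjusted p under 0.05. Derl3, Edem1, Sdf2l1 and Wfs1 head the left panel at 2.44 to 3.06, and Wfs1 falls to 0.50 in the right panel.

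ER-associated degradation was the role with the widest differences, and all 10 of its genes were higher in beta than in alpha cells and 9 of 10 higher than in delta cells. Edem1 (chr6:108828641-108859356), a lectin that extracts misfolded glycoproteins from the folding cycle, stood at 139, 124, 104 and 115 CPM in beta cells. In alpha cells it was 10.8, 19.5, 13.6 and 20.9 CPM and in delta cells 53.7, 46.2, 59.4 and 27.1 CPM. Its difference was 2.82 ± 0.17 against alpha cells (adjusted p = 4.60e-13) and 1.34 ± 0.20 against delta cells. Edem2, a mannosidase of the same family, stood at 108, 102, 114 and 124 CPM in beta, 34.8, 34.2, 39.4 and 41.8 CPM in alpha and 26.8, 40.8, 31.97 and 54.1 CPM in delta cells, with differences of 1.51 ± 0.13 and 1.52 ± 0.22. No pools overlapped for either gene.

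The derlins are membrane proteins of the channel through which misfolded proteins leave the ER. Derl3 (chr10:75893413-75895941) stood at 23.8, 21.4, 22.2 and 19.99 CPM in beta cells and 2.40, 2.93, 1.52 and 2.79 CPM in alpha cells (3.06 ± 0.35). The 4 delta sums held 0, 1, 0 and 1 UMI of it, so the size of that difference is poorly set. Derl1 stood at 240.3, 231, 252 and 262 CPM in beta, 82.9, 70.3, 59.1 and 62.6 CPM in alpha and 53.7, 109, 132 and 81.2 CPM in delta cells. Derl2 stood at 135, 148, 183 and 177 CPM in beta, 49.2, 41.02, 43.96 and 32.02 CPM in alpha and 46.02, 43.5, 41.1 and 27.1 CPM in delta cells. Beta pools lay above all others for these 2 genes as well, by 1.75 ± 0.12 and 1.35 ± 0.16 for Derl1 and by 1.85 ± 0.14 and 1.93 ± 0.20 for Derl2.

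The ubiquitin ligase complex of this pathway is formed by Syvn1 (HRD1) and its adaptor Sel1l. Sel1l stood at 192, 217, 228 and 246 CPM in beta, 84.1, 76.2, 56.1 and 61.3 CPM in alpha and 65.2, 117, 54.8 and 75.8 CPM in delta cells, a difference of 1.57 ± 0.13 and 1.41 ± 0.17 without overlap. Syvn1 was scarcer, at 31.1, 26.4, 26.3 and 43.5 CPM in beta, 12.01, 16.6, 9.10 and 13.9 CPM in alpha and 23.01, 19.04, 4.57 and 10.8 CPM in delta cells. Its differences were 1.17 ± 0.22 and 0.98 ± 0.37, and the second was lost in 9 of the 16 alternatives.

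Herpud1 (chr8:94386438-94395377), a ubiquitin-like scaffold of the same complex, stood at 364, 431, 555 and 504 CPM in beta, 259, 278, 397 and 289.6 CPM in alpha and 441, 473, 516 and 574 CPM in delta cells. It was higher than in alpha cells by 0.53 ± 0.089, with overlap of pools, and did not differ by the test from delta cells (-0.14 ± 0.12, adjusted p = 0.434). Os9, a lectin that hands substrates to Sel1l, stood at 187, 184, 190.1 and 195 CPM in beta, 154, 125, 152 and 175 CPM in alpha and 115, 112, 128 and 114 CPM in delta cells. Vcp (p97), the cytosolic ATPase that pulls substrates out, stood at 442, 422, 441 and 474 CPM in beta, 383, 335, 368 and 342 CPM in alpha and 384, 316, 311 and 227 CPM in delta cells. These last 2 had the smallest called differences from alpha cells, 0.26 ± 0.10 and 0.24 ± 0.086, and both turned negative with library totals alone. Without mutant 2 neither passed, and Os9 was also lost without control 1 and Vcp without control 2.

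All 3 translocation genes were higher in beta cells than in both other classes. Sec61b stood at 1100.0, 1009, 1119 and 1208 CPM in beta, 652, 613, 632 and 624 CPM in alpha and 591, 473, 525 and 563 CPM in delta cells. Sec61a1, the pore subunit, stood at 537, 521, 489 and 559 CPM in beta, 312, 242, 259 and 285 CPM in alpha and 234, 248, 228 and 200.2 CPM in delta cells. Ssr1, of the translocon-associated complex, stood at 297, 269, 289 and 309 CPM in beta, 140.5, 98.6, 150.1 and 143 CPM in alpha and 142, 169, 210.1 and 200.2 CPM in delta cells. None of the 3 overlapped, and their differences from alpha and delta cells were 0.74 ± 0.080 and 1.02 ± 0.12 for Sec61b, 0.87 ± 0.089 and 1.18 ± 0.13 for Sec61a1, and 1.07 ± 0.10 and 0.68 ± 0.14 for Ssr1.

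Wfs1 (chr5:36966104-36989205), wolframin, an ER membrane protein whose loss causes a syndrome with diabetes in humans, stood at 171, 194, 232 and 238 CPM in beta cells. In alpha cells it was 34.8, 39.1, 42.5 and 27.9 CPM and in delta cells 123, 158, 159.9 and 129.9 CPM. The difference from alpha cells was 2.44 ± 0.14 (adjusted p = 1.18e-13), and that from delta cells 0.50 ± 0.15 (adjusted p = 0.00456), so this gene placed delta cells nearer to beta than to alpha cells. The call against delta cells was lost in 5 of the 16 alternatives, among them DESeq2, limma-voom and the omission of control 2.

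The 9 genes with an ERSE had a median difference from alpha cells of 1.19 (range 0.47 to 3.06), and the 21 tested genes with a known promoter and no ERSE a median of 0.98 (range -0.79 to 2.82). Against delta cells these medians were 0.98 and 0.68. The ranges overlap almost entirely, and no test was made of this split.

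The wider secretory pathway was followed in lists of genes that are not among the 36. For the translocon, the signal recognition particle and signal peptidase, 19 of 21 genes were higher and 1 lower in beta than in alpha cells, led by Sec11c (1.88 ± 0.10) and Spcs3 (1.80 ± 0.11), both signal peptidase subunits. For N-glycosylation and glycoprotein folding, 20 of 22 were higher and none lower, led by the cargo lectin Lman1 (1.85 ± 0.10) and the folding sensor Uggt1 (1.64 ± 0.11). Against delta cells these lists gave 17 of 21 and 17 of 22 higher, with none lower. ER-to-Golgi transport gave 18 higher and 3 lower of 29 against alpha cells, and 22 higher of 29 against delta cells, with the collagen export factor Mia3 (1.40 ± 0.10 against alpha) among the first. The medians of these 3 lists against alpha cells were 0.77, 0.95 and 0.50.

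Redox folding factors were split, with 10 higher and 6 lower of 29 against alpha cells and 7 higher and 4 lower against delta cells. Ero1lb, the pancreatic oxidase that recharges the disulfide isomerases, had one of the widest differences, 4.07 ± 0.092 against alpha and 5.80 ± 0.18 against delta cells. The prolyl isomerase Fkbp11 was higher by 3.17 ± 0.19 against alpha cells. Lower in beta cells were the ER peroxiredoxin Prdx4 (-1.41 ± 0.14) and the calcium-binding Rcn1 (-2.13 ± 0.18). In the calcium list, 6 were higher and 1 lower of 10, the ER calcium pump Atp2a2 being higher by 2.32 ± 0.089 and the release channel Itpr1 lower by 3.19 (SE 0.11) on the log2 scale.

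Further degradation factors gave 12 higher and 1 lower of 24 against alpha cells and 8 higher of 24 against delta cells, led by the Vcp regulators Svip (1.71 ± 0.12 against alpha) and Vimp (1.35 ± 0.10). Regulators of the Ern1 and Atf6 branches gave 8 higher and 4 lower of 19 against alpha cells. The largest was Creb3l1 (4.19 ± 0.26), a membrane-tethered factor related to Atf6. Genes of the Eif2ak3 and Atf4 branch gave 7 higher and 3 lower of 15, with Atf5 (3.79 ± 0.25), Nupr1 (5.93 ± 0.42) and Asns (1.36 ± 0.19) higher, and Atf3 (-4.51 ± 0.13) and the phosphatase subunit Ppp1r15a (-0.60 ± 0.11) lower. This branch includes Atf4 targets, and mutant beta cells are part of the sums. Immediate early genes, which respond to dissociation and handling, were 12 of 13 lower in beta than in alpha cells and 7 of 13 lower, with 1 higher, than in delta cells. Their part in the differences of the 36 genes was not tested.

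The genotype comparison asked whether loss of Atf4 in beta cells changed this machinery. In beta cells none of the 36 genes passed (2 mutant against 2 control pools), where 0.737% of 13431 genes were called. Atf4 itself, at 3.35 and 175 CPM in the mutants against 532 and 547 CPM in the controls, did not pass here either. A comparison in which the targeted gene was not called cannot show that the 36 genes were unchanged. The beta class was made up of different clusters in the 4 pools when cells were clustered without the 36 genes. Cluster 0, led by Ccng1 and Cdkn1a, held 36.1% and 37.3% of the mutant 1 and mutant 2 beta cells against 1.74% and 3.84% in control 1 and control 2, and cluster 2, led by Cdkn1a and Pdyn, 36.9% and 33.9% against 0.99% and 1.08%. The controls also sat apart from each other, with 33.4% of control 1 and 3.44% of control 2 in cluster 11 (led by Plch1) and 4.22% and 32.0% in cluster 14 (led by St8sia1). Some cells of the beta class fell in clusters of other cell types, with 130 in acinar, 46 in endothelial and 30 in macrophage clusters. The acinar cluster, cluster 5, held 0.27% and 0.60% of the mutant beta class against 4.71% and 6.5% of the control beta class. The part of this in the values of the 36 genes was not tested. At an unadjusted p under 0.05 there were 3 higher and 4 lower, and 14% of all genes reached that level. The median change of the 36 was -0.079, and the standard errors of the single genes ran from 0.11 to 0.41. In 5 genes both mutant pools lay above both controls and in 14 they lay below, where 22.3% and 23.6% of all genes did. By role, the changes were positive in 6 of 10 luminal chaperones and negative in 8 of 10 degradation genes and 4 of 5 sensors and factors. The median change of all genes was 2.6e-05, and signs alone say little where values lie within their error. Examples are Atf6 at -0.018 ± 0.12 and Os9 at -0.057 ± 0.12. The split by role was not tested. With library totals alone, DESeq2, or deep cells with no Atf4 count in the mutants, 1 gene passed, Dnajc1 in each case.

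Dnajc1 had the lowest p in beta cells. Its levels, given above, were higher in both mutants than in both controls, by 0.63 ± 0.12 (edgeR adjusted p = 0.0671, unadjusted p = 6.50e-04). The same order held in alpha cells, by 0.52 ± 0.18 (adjusted p = 0.337), and in delta cells, by 0.62 ± 0.29 (adjusted p = 0.748). It was the only one of the 29 genes tested in all 3 classes with both mutants above both controls in each, where 3.18% of all 4469 such genes had that order. The change in beta minus that in alpha cells was 0.12 ± 0.18 (adjusted p = 0.957). Across 19 alternatives the beta value ran from 0.57 to 0.76 and its adjusted p from 0.00593 to 0.299. The 3′ end of Dnajc1 lies within Mllt10, a chromatin regulator on the other strand, over chr2:18195654-18212388. Mllt10 stood at 132, 164, 134 and 120.0 CPM in beta cells, where mutants and controls overlapped, and its change was 0.22 (edgeR adjusted p = 0.539). It stood at 162, 187.5, 158 and 153 CPM in alpha cells and at 146, 188, 63.95 and 97.4 CPM in delta cells. In both of these classes the mutants lay above the controls, as for Dnajc1, with a change of 0.19 in alpha cells (edgeR adjusted p = 0.784). Whether reads of Mllt10 enter the Dnajc1 counts was not tested.

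Herpud1 was the lowest-p gene in the other direction. Its mutant pools lay below its control pools in beta, alpha and delta cells, with changes of -0.42 ± 0.13 (adjusted p = 0.213), -0.33 ± 0.17 (adjusted p = 0.544) and -0.28 ± 0.19 (adjusted p = 0.801). Pdia6 showed the same order in the 3 classes, with -0.18 ± 0.12, -0.26 ± 0.15 and -0.39 ± 0.20, none of which passed, and so did Calr where each class was scaled on its own. These 3 of 29 stand beside 3.96% of all genes tested in the 3 classes. For Herpud1, mutant 1 was the lowest pool in all 3 classes.

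Derl2, Wfs1, Eif2ak3, Dnajc3 and Sdf2l1 completed the genes with an unadjusted p under 0.05 in beta cells. Derl2 was at 135, 148, 183 and 177 CPM (-0.36 ± 0.12, adjusted p = 0.242) and Wfs1 at 171, 194, 232 and 238 CPM (-0.37 ± 0.13, adjusted p = 0.242), both with mutants below controls. Eif2ak3 was at 50.00, 51.5, 38.6 and 40.6 CPM (0.35 ± 0.13, adjusted p = 0.271) and Dnajc3 at 624, 538, 437 and 475 CPM (0.34 ± 0.13, adjusted p = 0.283), both with mutants above. Sdf2l1 was -0.39 ± 0.16 (adjusted p = 0.304). The other sensors gave -0.36 ± 0.17 for Ern1 and -0.018 ± 0.12 for Atf6, and Xbp1 gave -0.11 ± 0.13. Calr gave -0.21 ± 0.11 and Hsp90b1 0.057 ± 0.11.

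**Figure D3:**
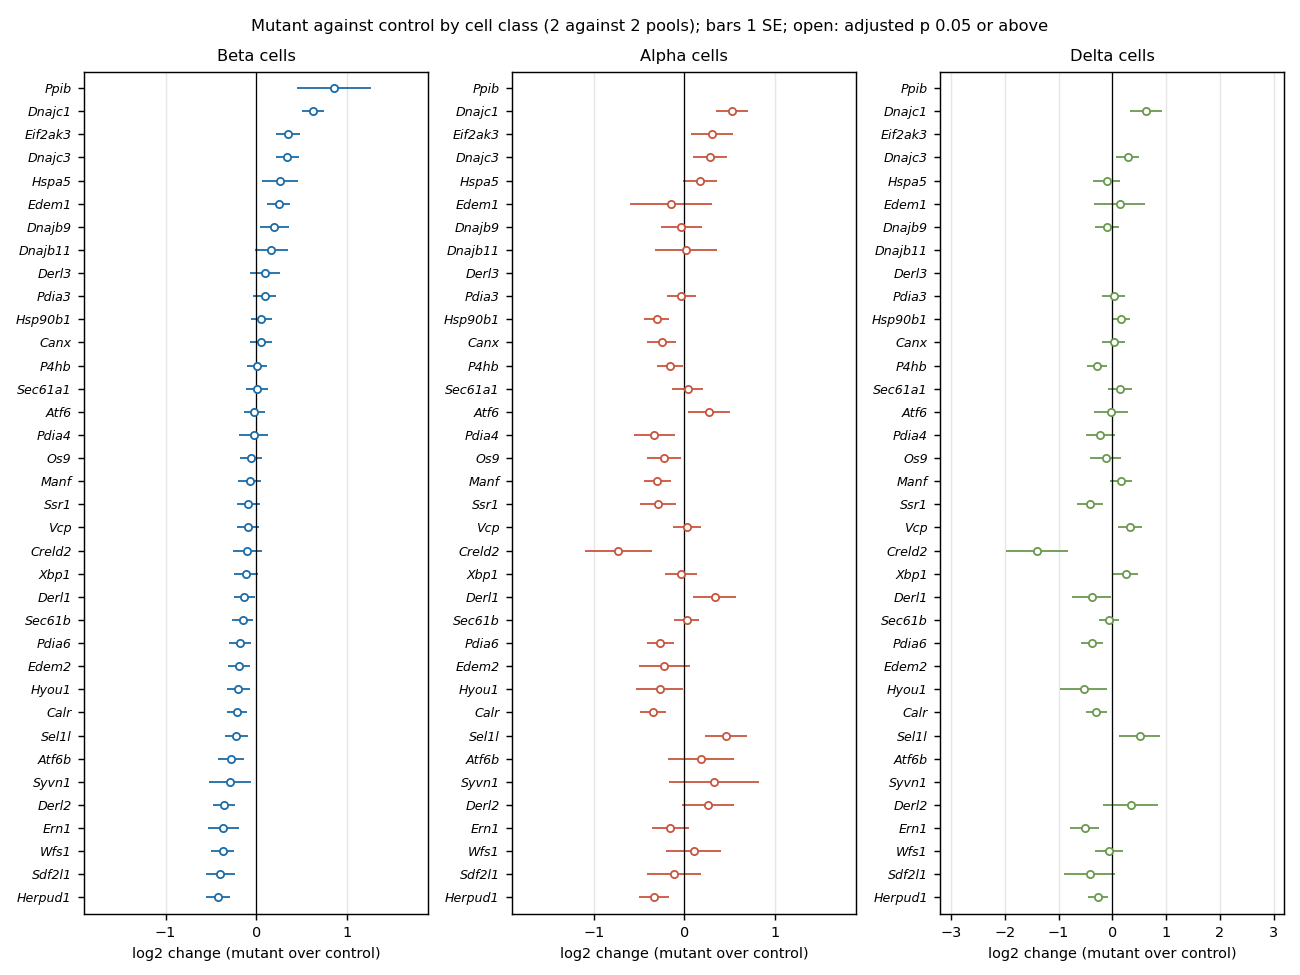
Log2 change of mutant over control pools (x axis, bars 1 SE, scale wider for delta cells) in beta, alpha and delta cells, genes ordered by the beta value; all points are open because none had an adjusted p under 0.05. Dnajc1 is right of 0 in all 3 panels, at 0.63, 0.52 and 0.62, and Herpud1 left of 0 in all 3; genes without a point were not tested in that class.

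Alpha cells, which do not use the Ins1 promoter, gave 34 tested genes and no call, with 0.288% of all 8684 genes called. At an unadjusted p under 0.05 there were 1 higher (Dnajc1) and 2 lower, Calr (-0.35 ± 0.14, edgeR adjusted p = 0.421) and Hsp90b1 (-0.31 ± 0.14, adjusted p = 0.494), where 9.67% of all genes reached that level. Atf4 stood at 263, 295, 462 and 341 CPM in alpha cells. All 6 lectin chaperones and isomerases tested had a negative value there, with a median of -0.26 against -0.0086 over all genes. This grouping was not tested. Endothelial markers summed to 223 and 224 CPM in the mutant alpha pools against 47.3 and 63.7 CPM in the controls, and their part in these values was not tested. Delta cells gave 29 tested genes and no call, with 0.0656% of 4572 genes called. Creld2 (-1.40 ± 0.57, edgeR adjusted p = 0.714) and Dnajc1 (adjusted p = 0.748) were the 2 with an unadjusted p under 0.05, which 6.56% of all genes reached.

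The difference between the genotype changes in beta and alpha cells was tested for 35 genes and called for none, with 0.313% of 13411 genes called. At an unadjusted p under 0.05 there were 1 with a positive and 3 with a negative difference, against 6.9% of all genes. Sel1l had the lowest p (edgeR adjusted p = 0.429), with -0.22 ± 0.13 in beta and 0.46 ± 0.23 in alpha cells, and Derl1 and Derl2 followed the same order. Hsp90b1 had a difference of 0.37 ± 0.13 (edgeR adjusted p = 0.456). The 3 negative differences were thus all degradation genes, none of which passed after adjustment. Atf4 itself was called in this comparison, at -2.78 ± 0.61.

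Related lists in the beta comparison gave the following background. Of the 15 genes of the Eif2ak3 and Atf4 branch none passed, 8 were lower at an unadjusted p under 0.05, and 11 had both mutants below both controls, with a median of -0.56. Atf4 itself and Atf5 (50.8, 384, 789 and 856 CPM) are among these 15. No gene of the lists for translocation, glycosylation, redox folding, degradation, ER-to-Golgi transport or calcium passed, nor did the regulators of Ern1 and Atf6, and their medians lay between -0.058 and 0.12. Immediate early genes moved with genotype in both classes. Junb (-0.90 ± 0.15) and Ier2 (-0.82 ± 0.14) fell in beta cells, and 12 of 13 had negative values there. In alpha cells 4 fell, Ier2 by 1.01 (SE 0.16) on the log2 scale among them, and 12 of 13 were negative. Acinar markers were also lower in mutant beta sums, at 59.5 and 77.2 CPM summed over 11 genes against 253 and 339 CPM in the controls, and 8 of the 11 fell. The part of handling or of acinar RNA in the values of the 36 genes was not tested.

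The range of levels differed from gene to gene. Over the 4 beta pools of both genotypes, the highest value exceeded the lowest by a factor of 1.05 in P4hb and Atf6 and 1.06 in Os9. The factor was 1.71 in Hspa5, 1.69 in Dnajc1, 1.65 in Ern1 and Syvn1, 1.58 in Sdf2l1 and 1.53 in Herpud1, and these factors include any difference between genotypes. The 2 control pools of Hspa5 stood apart, with 1531 CPM in control 1 and 997 CPM in control 2 in beta cells, and both mutants lay above control 2 and on either side of control 1. Its change of 0.26 ± 0.20 became -0.0072 without control 2 and 0.60 without control 1. Control 2 was also the lowest pool in all 3 classes for Dnajb9 and Pdia3, and the highest in all 3 for Pdia4 and Ern1. Mutant 2 was the lowest in all 3 for Hyou1, Creld2, Os9 and Sec61b.

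**Figure D4:**
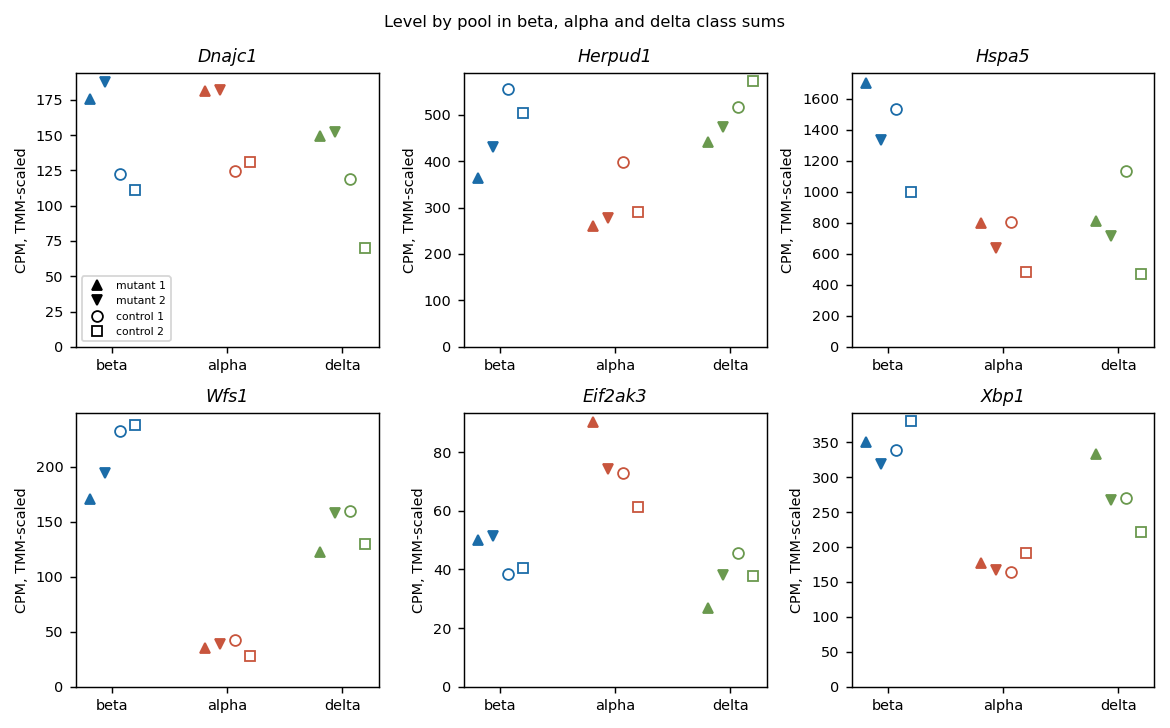
Level (CPM, TMM-scaled, linear axis from 0) of 6 genes in each pool (filled, mutant; open, control) for beta, alpha and delta sums. Dnajc1 has both mutants above both controls in each class, Herpud1 the reverse, and Hspa5 has its lowest value in control 2 in each class (997, 483 and 471 CPM).

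The mutant 2 pool held beta cells with and without Atf4 messenger, which allowed a view of the genes within one library. Among beta cells of over 8000 UMIs, 229 cells of mutant 2 had no Atf4 count and 136 had at least 3, while 380 of mutant 1 had none. The control pools gave 400 and 409 cells with at least 3. Most sexable cells among the 136 carried Y-linked messengers without Xist (114 against 2 with Xist alone), whereas the 229 held 65 and 94, so sex differs between these sets. With 1 pool per set there is no test, and the intervals are exact Poisson intervals at 95% that cover counting error only.

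The values of these sets are counts per 1000000 UMIs without TMM scaling, so they are not on the scale of the CPM above. Dnajc1 stood at 127 (116 to 139) in the mutant 2 cells without Atf4 and at 155 (140 to 171) in those with it. In mutant 1 it was 138 (130 to 147), and in the control cells 83.4 (76.8 to 90.4) and 81.6 (75.4 to 88.1). The mutant 2 cells that kept Atf4 were thus above both controls and not below the cells without it. Herpud1 stood at 275 (263 to 288) in mutant 1, at 304 (286 to 321) in the mutant 2 cells without Atf4 and at 345 (323 to 368) in those with it. The controls had 384 (370 to 399) and 369 (356 to 382), so the cells with Atf4 lay between the other sets. Hspa5 was 1141 (1108 to 1175) in mutant 2 cells without Atf4 and 809 (775 to 845) in those with it, both within the range of 715 to 1324 of the other 3 sets. Dnajc3 was 413 (393 to 434) in mutant 2 cells without Atf4 and 390 (367 to 415) in those with it, with overlapping intervals. Its values in the controls were 315 and 346.

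**Figure D5:**
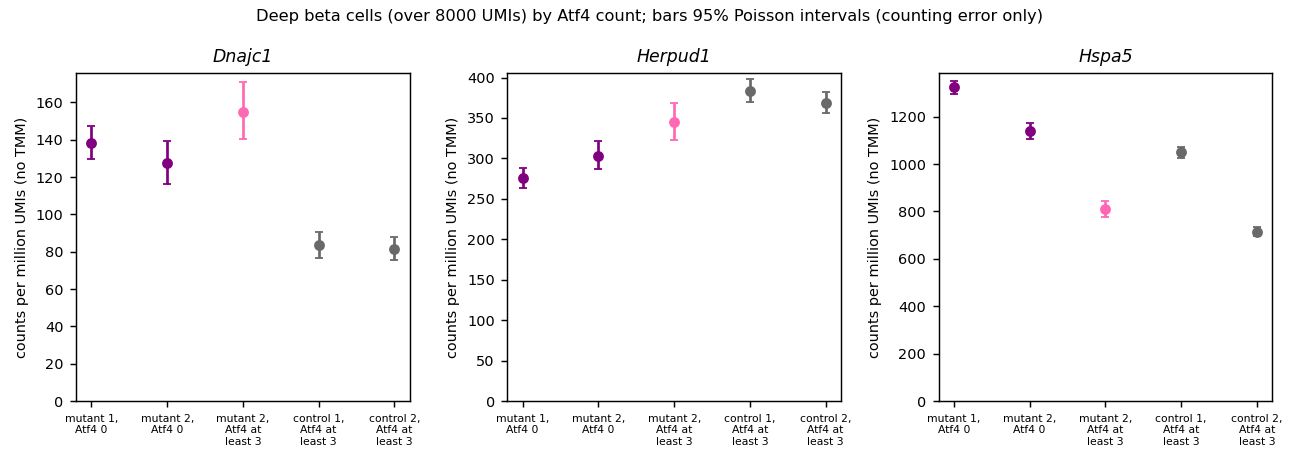
CPM within the pooled cells (no TMM scaling, axis from 0) of Dnajc1, Herpud1 and Hspa5 in beta cells of over 8000 UMIs, split by Atf4 count within each pool; bars are 95% Poisson intervals for counting error. Dnajc1 is at 127 to 155 in the 3 mutant sets, the one with Atf4 included, and at 81.6 and 83.4 in the controls.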

How the data were processed

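Single islet cells were encapsulated by inDrops and sequenced as TruDrop libraries on a NovaSeq, per the labels' protocols. The authors deposited 1 matrix of UMI counts per gene and barcode for each of the 4 libraries; Seurat and the mm10 build are named in the submitters' processing notes, and the counting tool, its gene annotation, its use of strand and the barcode filter are not given in the sources used here. UMIs of 6 bases can take 4096 values, and the highest count of a member in a barcode was 136, far from that ceiling. The counts were used as deposited. The 36 members, the related lists and the tests were chosen with earlier results of these data known.

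Kept were cells of 500 or more genes whose mitochondrial share was below 20%. Beta cells had at least 10% insulin and under 0.5% of each other hormone; alpha, delta and PP cells had under 5% insulin and at least 5% of their own hormone. Doublets were not called; cells of 2 hormones were left out. Counts were summed per class and pool and tested with edgeR 4.0.16 (quasi-likelihood, filterByExpr, TMM) in R 4.3.3, with Benjamini-Hochberg adjustment over all genes tested at 0.05. PP cells were under 20 in 2 pools and were not tested. Class comparisons had the pool as a block. Printed levels are CPM after TMM scaling over all class sums together; changes and their overlap counts come from each comparison's own fit. Members are given in full where they passed a test, are a sensor, Xbp1, Hspa5, Hsp90b1, Calr or Wfs1, or had one of the 5 lowest p in a comparison without calls; list genes are the up to 3 lowest p per direction. The test scripts were tested on simulated data. Promoters are RefSeq's (GRCm38.p6), positions GENCODE vM21 (GRCm38).

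Alternatives were library totals, removal of hormone genes, DESeq2 1.42.0, limma-voom 3.58.1, no filter, omission of each pool, other cell filters, removal of likely doublets, Leiden classes, blocks, and restrictions by depth, sex, Atf4 or genotype. The replicate numbers in the titles were checked for pairing: the deviations of same-numbered pools correlated at -0.12 in beta and near 0 in alpha and delta sums, and no source links the numbers.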

Additional observations from a re-analysis of the deposited data

Results flagged for a closer look

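Of 106 sets of 4 sums looked at (1 gene in 1 class), Atf6 in alpha cells had a pool far from the other 3. Control 2 stood at 59.9 CPM, where the others lay at 84.9 to 86.9 CPM, a gap of 0.926 of the whole range, above Dixon's 95% critical value; chance flags about 1 in 20 such sets, so 1 in 106 is fewer than chance gives.

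Derl2 had values of opposite sign in 2 classes, with both mutants below both controls in beta cells (-0.36 ± 0.12, edgeR adjusted p = 0.242) and above them in delta cells (0.34 ± 0.51 on the log2 scale, adjusted p = 0.945). Neither change passed, the delta sums held few counts of it, and the difference between beta and delta cells was not tested.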

How the results depend on the processing

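The number of members called was 30 to 33 against alpha cells (32 as reported) and 20 to 31 against delta cells (29 as reported) over 16 alternatives each, with 30 to 33 and 25 to 29 when 1 pool was left out. The lowest, 20 against delta cells, came with library totals alone, which kept 19 of the 29. Sizes varied too, with a median difference of members of 0.79 to 1.235 against alpha and 0.47 to 0.98 against delta cells. Against alpha cells Sdf2l1 ran from 1.49 to 2.70 and Wfs1 from 1.46 to 2.66. Against delta cells Hyou1 ran from 0.76 to 2.135 and Calr from 0.68 to 1.64. The standard errors printed above do not cover this spread. No genotype call was made in alpha or delta cells or for the difference between beta and alpha cells under any alternative; in beta cells 1 gene was called with library totals only, with DESeq2 and in deep cells with no Atf4 count in the mutants, and none when any pool was left out. The calls over all genes varied more, from 12 to 324 in beta, 8 to 100 in alpha and 1 to 37 in delta cells. PP comparisons could not be made with 10 and 12 cells in 2 pools.

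With the replicate number as a block, 0 members were called in beta cells, and without the pool as a block 30 and 27 were called against alpha and delta cells, the latter losing Ern1 and Syvn1. The same-numbered pools correlated at -0.12 in beta cells; pairing by the G number of the library names, which crosses them, gave 0 members. Against alpha cells 32 were called with the pool as a block, so calls changed there too. No genotype call of a member changed with the replicate or G number as a block.

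Some genotype values near 0 changed sign. In beta cells Atf6 became 0.11 with library totals only, 0.0064 with Leiden classes and 0.033 in cells with Xist but without Y-linked counts, and Xbp1 became 0.020 with library totals only. With 1 pool left out in turn, Atf6 ran from -0.066 to 0.018 and Hspa5 from -0.0072 to 0.60. In alpha cells the same omissions gave -0.15 to 0.58 for Hspa5, -0.15 to 0.091 for Xbp1, -0.44 to 0.22 for Ern1 and -0.17 to 0.42 for Wfs1. Hspa5, Xbp1, Ern1 and Wfs1 changed sign there without control 2, Hspa5 also without mutant 1 and Xbp1 also without mutant 2. In delta cells they gave -0.32 to 0.28 for Atf6, -0.24 to 0.062 for Wfs1 and -0.57 to 0.63 for Hspa5. There Atf6 also became 0.0032 with limma-voom and 0.015 without the filter, Hspa5 0.097 with Leiden classes and 0.00051 with the replicate block, and Xbp1 -0.077 with Leiden classes. For the change in beta minus that in alpha cells, Xbp1 became 0.024 with library totals only, Calr -0.0015 with Leiden classes and Eif2ak3 -0.064 with at least 1000 genes per cell, and 1 pool left out gave -0.46 to 0.0068 for Ern1 and -0.11 to 0.22 for Eif2ak3. Between classes, library totals only turned Os9 to -0.042 and Vcp to -0.058 against alpha cells, and Eif2ak3 to -0.13, Xbp1 to -0.13 and Hsp90b1 to -0.26 against delta cells. Eif2ak3 against delta cells also became -0.022 with Leiden classes, -0.17 in controls only and -0.0615 in cells of 3000 to 15000 UMIs. The cause of these sign changes was not tested, other than that library totals shift all genes. Depth limits the delta sums most, where 7 members could not be tested between genotypes.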
